A study of Mus musculus with 4 samples.

Results

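The cells described here are the ventricular zone progenitors of the medial ganglionic eminence (MGE), a ventral swelling of the embryonic mouse forebrain in which many inhibitory interneurons and striatal and pallidal neurons are born. They were chosen from 1 droplet single-cell RNA sequencing library of MGE tissue by their own counts of unique molecular identifiers (UMIs), which number captured RNA molecules. A cell was a member when ln(1 + UMIs per 10000) of Nes was above 1.5 and that of Dcx was at most 1.5, a level of 348 CPM (counts scaled to a total of 1e+06). Barcodes had first to show over 1500 but below 4500 genes, under 5% of UMIs from mitochondrial genes and under 1% from Hbb genes. This left 4852 of 6235 MGE barcodes, and 520 of them, 10.7% [9.86–11.6], were members. Over the 4 libraries 2180 of 16544 kept cells of 24193 barcodes passed the same gate.

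The study set the MGE beside the lateral (LGE) and caudal (CGE) ganglionic eminences and the dorsal cortex (CTX) to ask how progenitors and young neurons differ between regions. All 4 libraries came from wild-type (wt) mouse brain at E12.5 (embryonic day), with no agent given and with tissue of several embryos pooled, and the methods name the C57BL/6 strain. The labels describe a sort for live DRAQ5-positive, DAPI-negative cells and the methods describe wild-type cells as unsorted, and this was not settled. With 1 library for a region there were no replicates, and regions were compared by values alone, without a test. Brackets give exact 95% intervals that cover counting error only and leave out differences between cells, embryos and libraries.

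Radial glia of the ventricular zone line the brain ventricle, hold the intermediate filament protein nestin (Nes), and divide to renew themselves or to give rise to cells that move outward and become neurons. Notch signalling through Hes1 and Hes5 keeps them undifferentiated, while the Notch ligand genes Dll1 and Dll3 accompany the exit towards neurons. In the MGE, Sonic hedgehog from ventral midline tissue patterns these cells, and the homeobox gene Nkx2-1 sets MGE identity against that of the LGE. Dlx1, Dlx2 and Sp9 mark the next step towards GABAergic neurons, and Dcx, a microtubule-associated protein, marks young migrating neurons.

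The share of kept cells in the gate was 12.2% [11.3–13.2] in LGE (589 cells), 5.08% [4.35–5.89] in CGE (165 cells) and 24.9% [23.5–26.4] in CTX (906 cells), so the MGE share lay between those of CGE and LGE. At a Nes limit of 2.0 the shares were 4.62% in MGE and 3.43% in LGE, the reverse order. MGE members held 5047763 UMIs, between 2345 and 16348 per cell with a median of 9939.5, and the median depth was 8407 in LGE, 9434 in CGE and 8483.5 in CTX. The Nes limit cut through a continuous range. Within 0.1 ln units of it lay 70 members and 73 kept cells just outside, and the median Nes value of the members was 1.93. The 20 members nearest the limit lay between 1.50 and 1.53 and held Hes5 at 900.1 CPM and Nkx2-1 at 736 CPM, and the 20 cells just outside, between 1.47 and 1.50, held 532 and 860 CPM. The Dcx limit mattered to few cells, since 437 members held no Dcx UMI and 31 further cells passed the Nes limit with too much Dcx. The 20 members nearest that limit, from 1.04 to 1.49, held Hes5 at 407 CPM, and the 20 cells just past it, from 1.52 to 2.27, at 144 CPM.

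**Figure D1:**
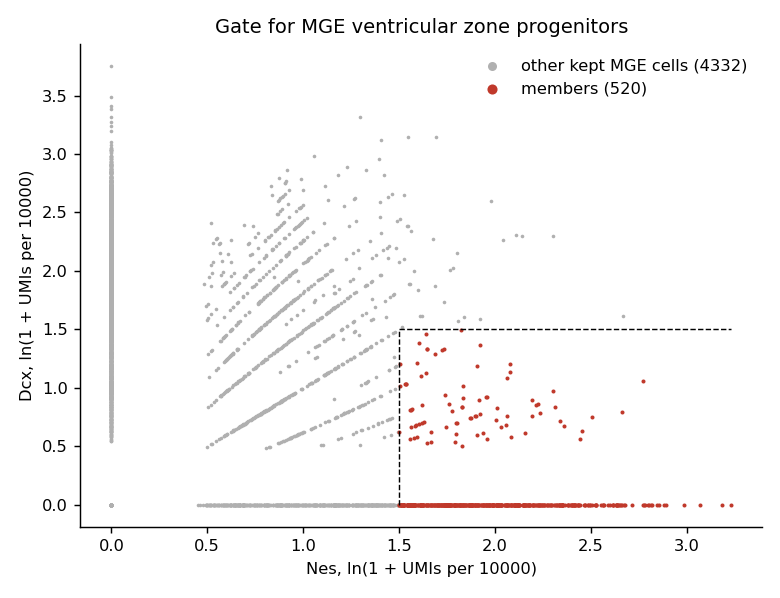
Each point is 1 of the 4852 kept MGE cells, with ln(1 + UMIs per 10000) of Nes on the x axis and of Dcx on the y axis. The 520 members (red) lie to the right of the dashed Nes limit of 1.5 and below the dashed Dcx limit of 1.5, and 437 of them lie at a Dcx value of 0, while the other kept cells (grey) run up to the Nes limit without a gap.

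Libraries shared few barcodes. MGE had 11 barcodes in common with LGE, 12 with CGE and 12 with CTX, and none was in the gate of both libraries. Predicted doublets, kept in all values given here, made up 6 of the 520 members. Another 5 members held at least 3 genes of a vascular, mesenchymal or microglial list. Free RNA was gauged in the 36 kept MGE cells of that non-neural kind, in which a progenitor gene should be absent. These 36 cells include the 5 non-neural members, so the sets compared overlap.

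Hes5 and Nkx2-1 were found in most members and Asb4 in fewer. Hes5, an effector of Notch signalling, stood at 1090.2 CPM in MGE, 600.5 in LGE, 1013 in CGE and 479 in CTX, and in the other kept MGE cells at 121 CPM. With each cell thinned at random to 3000 UMIs, so that depth could not set the share, 73.7% [69.7–77.4] of 517 members held a Hes5 UMI, beside 2.86% [0.0723–14.9] of 35 non-neural cells. Their own depth, with a median of 9939.5 UMIs in members and 8815.5 in non-neural cells, gave 86.3% and 5.56%. Nkx2-1 (chromosome 12, 56531958–56536908, mm10) was the sharpest of the regional markers. It stood at 553 CPM in MGE members, at 34.3 CPM in CGE cells of the gate, with 1 UMI in LGE and 0 in CTX. Thinned, it was found in 70.6% [66.5–74.5] of members and 6.75% [3.42–11.8] of CGE cells. It was in 0 of 571 LGE and 0 of 878 CTX cells, with exact upper limits of 0.644% and 0.419%. In MGE non-neural cells it was found in 8.57% [1.8–23.1]. Free RNA in the CGE library was not gauged. Asb4 (chromosome 6, 5383386–5433022), which encodes a substrate adaptor of a ubiquitin ligase, stood at 149.6 CPM in MGE, 40.5 in LGE, 5.28 in CGE and 2.06 in CTX. It was found in 29.6% [25.7–33.7] of thinned members, in 58.7% at their own depth, and in 2.86% [0.0723–14.9] of thinned non-neural cells. Asb4 stood at 131 CPM in the 20 members nearest the Nes limit and at 147 CPM in the 20 cells just outside. Nkx2-1 was also no lower just outside, and the paper describes it in most MGE cells. Near the limit, neither gene set members apart from other MGE cells.

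**Figure D2:**
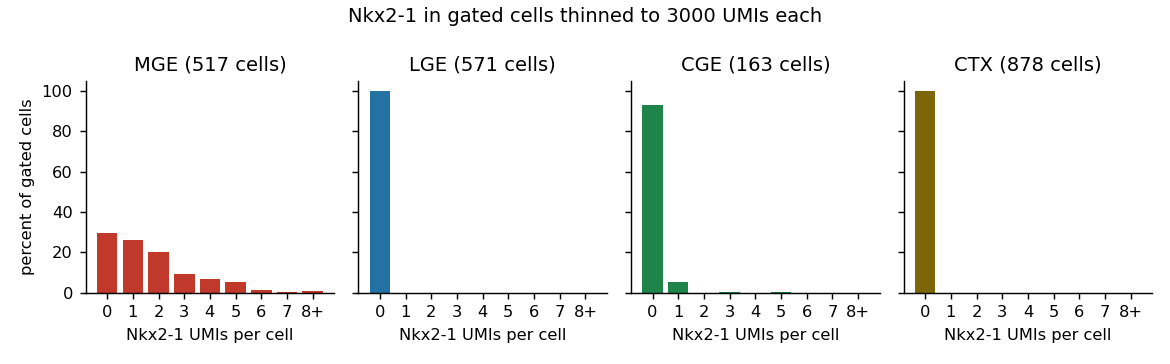
Bars give the percent of gated cells (y axis) with each number of Nkx2-1 UMIs (x axis, the last bar being 8 or more) after each cell was thinned to 3000 UMIs, 1 panel per library. In MGE 29.4% of 517 members had no UMI and counts ran to 8 or more, in CGE 93.3% of 163 cells had none, and in LGE and CTX no cell had one.

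All 25 genes of a radial glia list were detected in the members, and every member held at least 3 of them. The same held for every gated cell of LGE, CGE and CTX and for the non-neural members, so this count set no cells apart. Sox2, a stem cell transcription factor, was found in 87.2% [84–90] of thinned members, and Vim, another intermediate filament gene, in 95.9% [93.9–97.5], against 20% [8.44–36.9] and 77.1% [59.9–89.6] of non-neural cells, many of which are of types that express Vim themselves. Levels of Fabp7, a fatty acid carrier of radial glia, were 1572 CPM in members and 196 CPM in the other MGE cells. Fabp7 was also in 45.7% [28.8–63.4] of non-neural cells, against 71.4% [67.3–75.2] of members, so a Fabp7 UMI alone did not mark a progenitor. Pax6, a radial glia gene of dorsal regions, gave only 5 UMIs over all members. Other genes of the list were sparse too. Hes1, Sox3, Slc1a3, Id4, Ptn, Prom1, Vcam1 and Pkdcc had medians of 0 UMIs per member, and Tnc was found in 1 member.

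Genes of other classes were present at lower levels and in part of the members. The neurogenic genes Dlx2 and Dlx1 had medians of 2 and 1 UMIs per member and reached 25 and 39 UMIs in single cells. Of the neuron list, Tubb3, Stmn3 and Elavl3 had medians of 2 UMIs, whereas Lhx6 and Lhx8, which mark postmitotic MGE neurons, had medians of 0 and were found in 57 and 47 members. The G2 and mitosis list took from 0% to 2.8% of a member's UMIs with a median of 0.299%, and the neurogenic list from 0% to 1.43% with a median of 0.243%. Cortical neuron genes were nearly absent, with 3 Tbr1 UMIs and none of Neurod1, Neurod2, Neurod6, Slc17a7 or Eomes. Vascular and microglial transcripts came from very few members, with Cldn5 in 2 members, 1 of which held 89 UMIs, and C1qb in 1 member with 90 UMIs.

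The comparison with LGE asked what sets MGE progenitors apart from those of the neighbouring eminence. MGE members carried more RNA of the MGE and ventral regulators Nkx2-1, Olig2 and Lmo1, of Asb4 and of the matrix gene Bcan, and less of the radial glia genes Slc1a3 and Mt3. Of 3935 genes at 50 CPM or more in either set, 43 (1.09%) were at least 2-fold higher and 67 (1.7%) at least 2-fold lower in MGE, and the median log2 ratio over these genes was -0.033. Radial glia genes had 1 of 24 past the fold upward, Sparc, and 5 downward, with a median log2 ratio of 0.022. Of 6 tested early glial genes 2 were higher, Olig2 and Bcan, and none lower, with a summed ratio of 1.76 [1.7–1.83]. Among 14 tested genes of the ventral patterning list 4 were higher, Nkx2-1, Olig2, Lmo1 and the orphan nuclear receptor gene Nr2f1, and Meis1 was lower.

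Olig2, a bHLH factor of ventral progenitors, stood at 343 CPM in MGE, 87.8 in LGE, 159 in CGE and 0.514 in CTX. The ratio of MGE to LGE was 3.91 [3.52–4.35], and every other library lay below MGE. Lmo1, a LIM-domain cofactor, followed the same order, at 739 CPM in MGE, 197 in LGE, 304 in CGE and 64.7 in CTX, with a ratio to LGE of 3.75 [3.5–4.03]. Asb4 had a ratio to LGE of 3.7 [3.16–4.34]. Bcan, which encodes the proteoglycan brevican and lies 7.08 kb from Nes on chromosome 3, stood at 56.3 CPM in MGE with 1 UMI in LGE, a ratio of 284 [50.5–11245]. It was uneven within MGE and was found in 92 of 520 members, with up to 19 UMIs in 1 cell. Bcan was not particular to MGE. Thinned, it was in 10.6% [8.12–13.6] of MGE, 7.4% [5.76–9.34] of CTX and 4.29% [1.74–8.65] of CGE cells of the gate.

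Lower in MGE than in LGE were the metallothionein Mt3 at 190.4 against 673 CPM (0.283 [0.263–0.304]) and the glutamate transporter Slc1a3 at 69.5 against 218 CPM (0.319 [0.282–0.36]). Shisa2 was found in 52 of 520 members, and its level of 12.1 CPM was 0.0824 [0.0624–0.107] times the LGE level of 147 CPM. A list of 22 ventricular zone genes that the study names, chosen by it on cells that include these libraries and so no independent evidence, had 2 of 20 tested genes higher in MGE and 8 lower. Outside the lists, the highest ratios were those of Igdcc3 (5.78), Pcp4 (5.65), Nsg2 (5.02), Mxra7 (4.98) and Mbip (4.12). The lowest belonged to Ppp1r1a (0.0987), the ephrin receptor gene Epha5 (0.116), the ephrin gene Efnb2 (0.146), Hs6st2 (0.192) and Ntm (0.203). Mbip lies 186 kb from Nkx2-1 on chromosome 12 (56328303–56345894) with 4 annotated genes between them.

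Set against CGE, MGE members stood out by Nkx2-1, Asb4 and genes of neuronal commitment, while CGE cells carried far more Fabp7, Nr2f1 and Nr2f2. Of 4049 genes 38 (0.939%) were higher and 78 (1.93%) lower in MGE by the fold. The 24 tested radial glia genes had none higher and 7 lower, and their summed level in MGE was 0.605 [0.597–0.614] times that in CGE. Fabp7 was a large part of this sum, with 1572 CPM for MGE and 6822 for CGE, a ratio of 0.23 [0.224–0.237]. Of 13 tested neurogenic genes 4 were higher in MGE and none lower, namely Insm1, Sp9, Mpped2 and the cell cycle inhibitor Cdkn1c. Insm1, a zinc-finger factor of newly committed cells, stood at 399.8 CPM in MGE, 265 in LGE, 94.3 in CGE and 54 in CTX. Nr2f1 stood at 300.1 in MGE against 1393 CPM in CGE (0.215 [0.202–0.23]), and Nr2f2 at 45.4 and 388 CPM (0.117 [0.10–0.136]). Unlisted genes with the highest ratios were Pou3f1 (31.7 [13.5–98.1]), the retinoic acid carrier Crabp2 (10.5 [5.66–22.2]), Sez6, Fam210b and Pcp4, and the lowest were Lrp4, Veph1, Ppp1r1a, Phlda1 and Epha5.

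The CTX gate held dorsal radial glia, and the contrast with it was the widest of these 3. Of 4087 genes 151 (3.69%) were higher and 133 (3.25%) lower in MGE. All 8 tested dorsal genes were lower in MGE, with a median log2 ratio of -7.13. Those below 50 CPM in MGE were tested only because of their CTX level, so their direction was set in advance. MGE members held no UMI of Emx1, Neurog2, Eomes or Tfap2c. These dorsal genes stood in CTX at 165, 320.1, 53 and 81.8 CPM, so with a floor of 3 UMIs per library they were at least 277-, 539-, 89.1- and 138-fold lower in MGE. Of 13 ventral genes 9 were higher in MGE, and those below 50 CPM in CTX could only be higher. Dlx2, a homeobox gene of ventral cells on their way to neurons, stood at 396 CPM in MGE, 463 in LGE, 276 in CGE and 0.386 in CTX, and its ratio to CTX was 1026 [351–4981]. Of 13 neurogenic genes 8 were higher and 1, Mpped2, was lower. The early glial list went the other way for Nfib, Nfix and Fgfr3, which were lower in MGE, and only Olig2 of its 6 tested genes was higher.

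Among unlisted genes, MGE exceeded CTX most for Dlx6os1, the antisense RNA of the Dlx5 and Dlx6 locus, with 1 UMI in CTX (529 [94.2–20939]), for Fign with 2 UMIs there (203 [55.5–1682]), for the imprinted gene Dlk1 (70.8 [41.9–130.2]), for the chemokine receptor Ackr3 (58.2 [29.2–136]) and for Lxn (37.7 [23.3–65.4]). Lowest were Dok5, the glycolytic enzyme Aldoc, the adhesion gene Alcam, Ppp1r1a and Pde1b. Ppp1r1a was among the 5 lowest in each of the 3 comparisons, which share the MGE cells, at 6.54 CPM in MGE, 66.2 in LGE, 77.8 in CGE and 229.7 in CTX. The immediate early genes Jun and Ier2, which also respond to tissue dissociation, were lower in MGE than in CTX, and the summed level of their list was 218 CPM in MGE, 260.2 in LGE, 255 in CGE and 559 in CTX. The part of dissociation in these ratios was not tested, and region, library and preparation cannot be told apart.

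**Figure D3:**
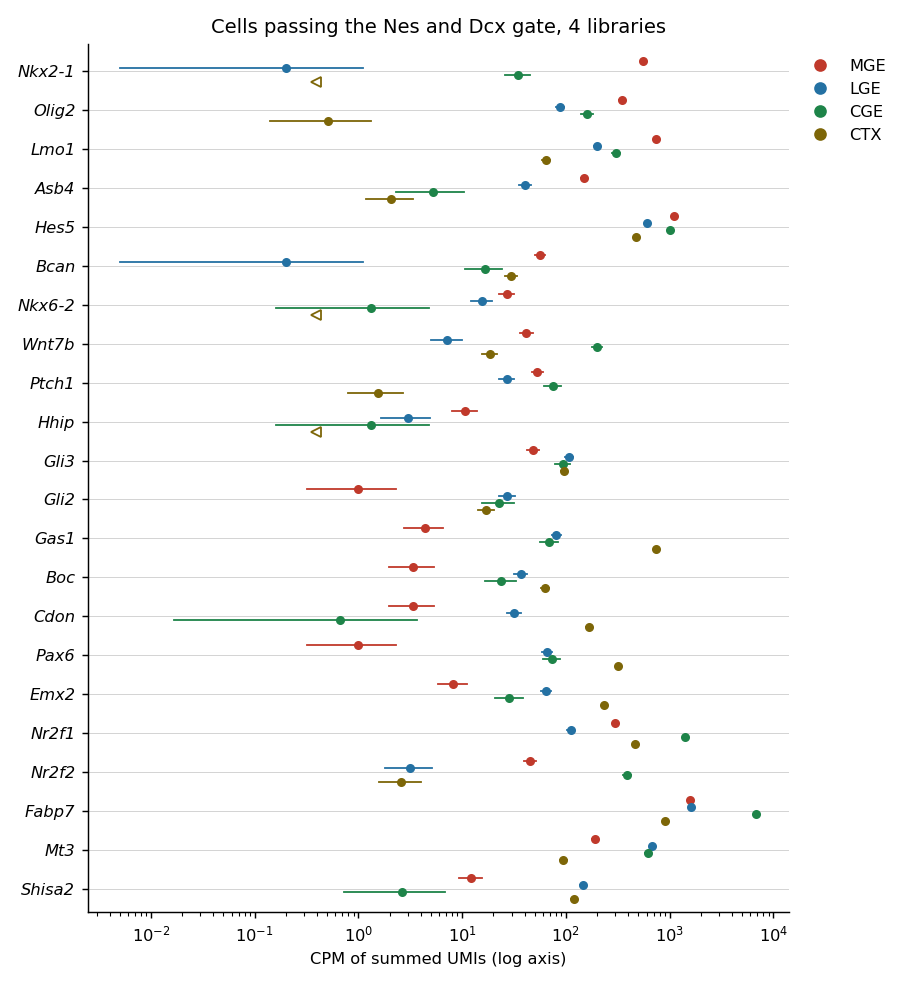
Points give the level of each gene in the gated cells of each library, in CPM of summed UMIs on a log axis, and lines the exact 95% counting interval. An open triangle marks a gene with 0 UMIs, drawn at the level of 3 UMIs. MGE (red) lies to the right of every other library for Nkx2-1, Olig2, Lmo1 and Asb4 and to the left for Gas1, Boc, Gli2, Pax6 and Emx2.

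The hedgehog co-receptor genes Gas1 and Boc were lower in MGE members than in every other library, and the target genes Ptch1, Hhip and Gli1 followed no common order. Ligand transcripts were nearly absent, with 2 Shh UMIs over all members. The receptor and target gene Ptch1 stood at 53.1 CPM in MGE, 26.8 in LGE, 75.2 in CGE and 1.54 in CTX, and the signal transducer Smo at 76.1 CPM in MGE, 68.6 in LGE, 71.2 in CGE and 82 in CTX. Ptch1 was higher in CGE than in MGE, and Smo was near level across the libraries. Gli1, a transcription factor gene that reports hedgehog signalling, stood at 2.77 CPM in MGE, 6.15 in LGE, 6.6 in CGE and 0 in CTX. Gas1 stood at 4.36 CPM in MGE, 80.7 in LGE, 68.6 in CGE and 735 in CTX, Boc at 3.37 CPM in MGE, 36.5 in LGE, 23.7 in CGE and 62.5 in CTX, and Cdon at 3.37 CPM in MGE, 31.7 in LGE, 0.66 in CGE and 165 in CTX. MGE was thus the lowest library for Gas1 and Boc, and for Cdon all but CGE, which had 1 UMI. The ratio of MGE to LGE was 0.054 [0.0335–0.0829] for Gas1, 0.0923 [0.0526–0.152] for Boc and 0.106 [0.0603–0.175] for Cdon. The transcription factor genes Gli2 and Gli3, which transmit the signal, were also low, at 0.991 CPM in MGE, 27.2 in LGE, 22.4 in CGE and 17 in CTX for Gli2 and 48.1 CPM in MGE, 107 in LGE, 93 in CGE and 96 in CTX for Gli3. Hhip, a target gene whose product binds the ligand, stood at 10.7 CPM in MGE, 2.97 in LGE, 1.32 in CGE and 0 in CTX. Of 16 genes on the list 4 reached 50 CPM in the comparison with LGE, of which Gli3 and Gas1 were lower by the fold and none was higher, and the summed level of all 16 was 0.572 [0.532–0.614] of that in LGE.

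The Notch list of 22 genes had 1 of 11 tested genes higher than in LGE and none lower, 1 of 13 lower than in CGE, and 5 of 12 higher and 2 lower than in CTX. Ligand genes Dll1 and Dll3, the receptor gene Notch1, the modifier Mfng and Hes5 exceeded CTX, and the effectors Hes1 and Hey1 were lower than there. Hes1 stood at 63.4 CPM in MGE, 50.8 in LGE, 101 in CGE and 143 in CTX. Mfng, a glycosyltransferase acting on Notch, was the gene higher than in LGE, at 181 against 84.5 CPM (2.14 [1.9–2.41]).

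Wnt pathway genes tended to be lower in MGE where they passed the fold. Against LGE 2 of 6 tested genes were lower, the receptor gene Fzd8 and the secreted inhibitor Sfrp1, and none was higher. Sfrp1 stood at 193 CPM in MGE, 528 in LGE, 582 in CGE and 858 in CTX. The ligand Wnt5a lay below the 50 CPM limit, at 26.5 CPM in MGE, 1.98 in LGE, 3.96 in CGE and 1.41 in CTX, with MGE highest. Wnt7b stood at 41.6 CPM in MGE, 7.14 in LGE, 199 in CGE and 18.4 in CTX. The S phase and the G2 and mitosis lists had no gene past the fold between MGE and any other library, with 20 of 20 genes of each tested each time. The list of G1 cyclins and inhibitors had genes higher in MGE, Cdkn1c over LGE, Cdk6 and Cdkn1c over CGE, and Ccnd1 and Cdk6 over CTX, and none lower. Ccnd1, a cyclin of G1, stood at 429 CPM in MGE, 406 in LGE, 319.9 in CGE and 102 in CTX. The summed G2 and mitosis level in MGE was 0.745 [0.733–0.757] of that in LGE, 1.09 [1.06–1.11] of that in CGE and 0.906 [0.892–0.919] of that in CTX. Of the FGF list, 4 of 17 genes were tested in each comparison, and Fgfr3, at 52.1 CPM in MGE, 36.1 in LGE, 137 in CGE and 112 in CTX, was lower in MGE than in CGE and CTX.

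Members were then split by whether a cell held a UMI of Nkx2-1, Nkx6-2 or Wnt7b. A cell without a UMI can still express the gene, so the number of empty cells that an even level would give stands beside each split. Nkx2-1 was found in 471 members and not in 49, where an even level of 5.37 UMIs per cell at each cell's own depth would leave 7.57 empty cells. Nkx6-2 (chromosome 7, 139579376–139582797), a homeobox gene of the region between LGE and MGE, was found in 57 and not in 463, with 401 empty cells from an even 0.262 UMIs per cell. Wnt7b (chromosome 15, 85535437–85582473), a Wnt ligand gene, was found in 117 and not in 403, with 349 from an even 0.404. The number of empty cells therefore exceeded the even case in each split, and most cells of the larger sets for Nkx6-2 and Wnt7b cannot be called negative. Each gene is overlapped by another annotated gene on the opposite strand, Gm26973, Inpp5a and AU022754 in the same order, and their reads could not be told apart without knowing how strand was counted. Many other genes named here, among them Hes5, Hhip, Ptx3, Pax6, Dlx1, Sp9, Ptch1, Gli1, Dlx6os1, Fgfr3, Id4, Nr2f1, Nr2f2, Olig1 and Cdkn1c, also overlap annotated genes, and their values carry the same doubt.

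Combinations of the 3 genes were counted in the same 520 members. Nkx2-1 alone was found in 329, Nkx2-1 with Wnt7b in 95, Nkx2-1 with Nkx6-2 in 41, all 3 in 6, and none in 24. Nkx6-2 and Wnt7b shared 7 members, where 12.8 would be shared if each fell on cells independently, and 50 members held Nkx6-2 alone of this pair and 110 Wnt7b alone. Thinned to 3000 UMIs, 0 of 26 members with Nkx6-2 held Wnt7b, with an exact upper limit of 13.2%, and 13% [10.2–16.3] of 491 without it did, so no difference was detectable at this depth. Nkx2-1 was found in 69.2% [48.2–85.7] of thinned members with Nkx6-2 and 70.7% [66.4–74.7] of those without, and the intervals overlapped. Nkx6-2 itself was not particular to MGE. Thinned, it was in 5.03% [3.31–7.28] of members and 2.8% [1.61–4.51] of LGE cells of the gate, with intervals that overlapped. No thinned CGE or CTX cell of the gate held it.

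Members with an Nkx2-1 UMI held more RNA of Dlx1, Dlx2 and other neurogenic genes than the 49 members without one, and the members without it held more Nr2f1, Nr2f2 and Dio3. Of 4090 genes 68 (1.66%) were higher and 77 (1.88%) lower with Nkx2-1. The 10 lowest were Gja4, Vtn, Rgs5, Mmp9, Igfbp7, Bgn, Kdr, Pdgfrb, Col4a2 and Col4a1, mostly genes of vascular cells and their matrix, and 3 of the 49 cells without Nkx2-1 were of the non-neural kind. With the 5 non-neural members removed, 74 of 4123 genes (1.79%) were higher and 36 (0.873%) lower. The levels, ratios and list counts by Nkx2-1 that follow are from these 515 cells. Thinned shares and numbers of members that held a gene still include the non-neural members. The median depth of all members was 10067 UMIs with Nkx2-1 and 8407 without.

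Of 13 tested neurogenic genes 7 were higher with Nkx2-1 and none lower, and the summed level of the list was 1.68 [1.56–1.82] times as high. Dlx1 stood at 432 against 60.9 CPM (7.09 [4.71–11.2]), and Dlx2 at 421 against 146 CPM (2.89 [2.21–3.85]). After thinning, Dlx1 was in 51.8% [46.5–57] of 365 members with Nkx2-1 and 29.6% [22.5–37.5] of 152 without, so at equal depth the shares still differed beyond counting error. Npy, a neuropeptide gene of some interneurons, stood at 53.3 against 7.94 CPM, and 48 members held it, 1 of them with 29 UMIs. The S phase list had 4 of 20 genes higher, Pcna, Cdc6, Cdc45 and Clspn, and a summed ratio of 1.5 [1.42–1.6]. The 10 highest genes also held Esco2, Hist1h1b, Brca1, Ube2t, Pou3f1, Mybl2, Dlx6os1 and Hist1h1e. When all members were split on thinned counts instead, 17 genes were higher and 8 lower, and the 4 S phase genes and Esco2, Hist1h1b, Brca1 and Mybl2 lay inside the fold, while Dlx1, Dlx2 and Npy lay past it.

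Dio3, which encodes the enzyme that inactivates thyroid hormone, was the lowest with Nkx2-1, at 14.7 against 138 CPM (0.107 [0.0734–0.156]). After thinning it was found in 2.74% [1.32–4.98] of members with and 7.24% [3.67–12.6] of members without Nkx2-1, and these intervals overlapped. Nr2f2 stood at 38.3 against 117 CPM and Nr2f1 at 273 against 657 CPM, ratios of 0.329 [0.235–0.469] and 0.416 [0.363–0.479]. Fzd8 and Fgfr3, receptor genes of the Wnt and FGF pathways, and Ptx3 and Nkx2-3 were among the 10 lowest, with Pcdh17, Scap, Smarca2 and Fam160b1. Radial glia genes had none of 23 higher and 1, Pkdcc, lower. Hes5 stood at 1124 against 818 CPM, within the fold.

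Members with Nkx6-2 were poor in every neurogenic gene that could be tested and rich in Hhip, a hedgehog target gene. Of 4070 genes 53 (1.3%) were higher and 76 (1.87%) lower with Nkx6-2. All 13 tested neurogenic genes were lower, with a median log2 ratio of -1.72 against 0.038 over all genes tested, and the summed level was 0.297 [0.273–0.322] of that in the other members. Those below 50 CPM with Nkx6-2 were tested only through the other members, so their direction was set by the limit. Dlx1 stood at 73.8 against 443 CPM (0.166 [0.12–0.224]), Dlx2 at 92.2 against 436 CPM (0.211 [0.159–0.276]) and Sp9 at 16.8 against 167 CPM (0.10 [0.0479–0.186]). Of 7 tested neuron genes 5 were lower and none higher. None of 40 genes on the S phase and the G2 and mitosis lists was past the fold, with summed ratios of 0.963 [0.924–1.0] and 0.937 [0.902–0.973]. Of 8 tested G1 cyclins and inhibitors 2 were lower, Cdkn1c and the cyclin gene Ccnd2, the latter at 265 against 564 CPM (0.47 [0.397–0.552]). Median depth was 10918 UMIs with Nkx6-2 and 9772 without. Without the upper limit on genes, 12 genes were higher and 34 lower.

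Hhip (chromosome 8, 79965851–80058006) had the highest ratio, at 58.7 against 4.27 CPM (13.7 [7.65–25.4]). It was found in 18 of the members with (31.6% [19.9–45.2]) and 15 of those without (3.24% [1.82–5.29]) Nkx6-2, with at most 8 UMIs in 1 cell. Gli1, below the 50 CPM limit, was in 7 of the members with (12.3% [5.08–23.7]) and 5 of those without (1.08% [0.352–2.5]), and after thinning in 7.69% [0.946–25.1] and 0.815% [0.222–2.07], with intervals that overlapped. Ptch1 stood at 88.9 against 48.3 CPM (1.84 [1.34–2.5]), inside the fold. Of these 3 target genes only Hhip was past the fold, and the summed hedgehog list stood at 1.48 [1.27–1.72]. Dio3 followed at 119 against 11 CPM (10.8 [7.41–15.9]), with 20 of its UMIs in 1 cell, and was found in 15 of the members with (26.3% [15.5–39.7]) and 35 of those without (7.56% [5.32–10.4]). Thinned, Dio3 was in 15.4% [4.36–34.9] and 3.46% [2.03–5.49], with intervals that overlapped.

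Further genes among the 10 highest were the pentraxin gene Ptx3 at 98.9 against 14.4 CPM (6.88 [4.75–9.96]), which lies within Veph1, Pcp4 (3.77), Fstl5 (3.73), the cadherin Cdh11 (2.95), the chromatin protein Hmga2 (2.89), the bHLH inhibitor Id4 (2.86), the homeobox gene Nkx2-3 (2.86) and the BMP antagonist Nog (2.75). Notch genes split in this comparison. The ligand Jag1 (2.21 [1.5–3.17]) and the effector Hes1 (2.49 [1.91–3.22]) were higher with Nkx6-2, and Dll1, Dll3, Mfng and Hes6 were lower. Hes5 stood at 870.2 against 1119.7 CPM, a ratio of 0.777 [0.709–0.851]. Radial glia genes had 4 of 23 higher, Hes1, Sparc, Id4 and Pkdcc, and none lower, with a summed ratio of 1.1 [1.08–1.13]. The list of the study's ventricular zone genes had 6 of 18 higher and 2 lower.

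Lowest with Nkx6-2 was Bcan, at 3.35 against 63.4 CPM (2 against 282 UMIs, 0.0529 [0.00638–0.193]). The 10 lowest also held Sp9, Rhbdl3, RP23-145L9.6, AW047730, Nrxn3, Dlx6os1, Npy and the neuronal gene Tagln3. Pdgfra, a receptor gene of oligodendrocyte precursors, was in 0 of 57 members with Nkx6-2, where a floor of 3 cells stands at 5.26%. It was in 20 of 463 without (4.32%), so no difference was detectable. Fgfr3 was the early glial gene higher with Nkx6-2, at 104 against 45.2 CPM (2.3 [1.7–3.07]), and Bcan and Nfix were lower. Olig1, a partner of Olig2 in oligodendrocyte development, stood at 5.03 against 43.6 CPM, with 3 against 194 UMIs (0.115 [0.0236–0.342]). The dissociation list, with Jun as its 1 tested gene, was 2.02 [1.74–2.34] times as high with Nkx6-2, and its part in the other ratios was not tested.

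Members with Wnt7b held more RNA of Fabp7 and 6 other radial glia genes, of Bcan and Olig1, and less of the neuron genes Tubb3, Stmn2, Elavl4 and Nrxn3. Of 3982 genes 46 (1.16%) were higher and 20 (0.502%) lower with Wnt7b, at a median depth of 9958 UMIs with and 9927 without. Of 23 tested radial glia genes 7 were higher and none lower, with a summed ratio of 1.71 [1.68–1.74]. Fabp7 (chromosome 10, 57784881–57788450) was a large part of the rise in this sum, at 3920.3 against 887 CPM (4.42 [4.23–4.62]), with up to 342 UMIs in 1 member. Slc1a3 stood at 147 against 47.1 CPM (3.11 [2.51–3.86]), and Mt3 at 354 against 143 CPM (2.49 [2.18–2.83]). Hes5 was inside the fold, at 1538 against 959.6 CPM (1.6 [1.51–1.7]). Early glial genes had 3 of 7 higher, Olig1, Bcan and Fgfr3, and none lower, so Fgfr3 was higher in both splits. Bcan stood at 131 against 34.5 CPM (3.78 [2.98–4.81]) and Olig1 at 80.7 against 26.9 CPM (3.0 [2.25–4.01]).

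The highest ratio with Wnt7b belonged to Cdo1, a cysteine-degrading enzyme, at 75.5 against 10.7 CPM (7.02 [4.8–10.4]). Ndrg2, an astrocyte-enriched gene, stood at 212 against 37.4 CPM (5.68 [4.61–7.03]). Thinned, Ndrg2 was in 43.8% [31.4–56.7] of 64 members with Wnt7b and 13.5% [10.5–17] of 453 without, and Bcan in 26.6% [16.3–39.1] and 8.39% [6.0–11.3], so neither pair of intervals overlapped. Ptx3, inside the fold here at 36.9 against 20.7 CPM (1.78 [1.19–2.61]), was in 14.1% [6.64–25] of thinned members with Wnt7b and 3.09% [1.7–5.13] without. Others of the 10 highest were Mmd2 (5.8), the transcription factor Rfx4 (4.43), the secreted glycoprotein Mfge8 (4.36), AW047730 (4.05), the proteoglycan Cspg5 (3.68) and Igfbp5 (3.63), of which 57 UMIs came from 1 cell. Of 13 neurogenic genes 4 were lower, among them Dll3, Dlx1 and Sp9, and of 7 neuron genes 4 were lower, Tubb3, Stmn2, Elavl4 and Nrxn3. Also among the 10 lowest were RP23-145L9.6, Dlx6os1, Igfbpl1, Pou3f1 and Bcl11b. No gene of the S phase or the G2 and mitosis list passed the fold, and the summed G2 and mitosis level was 0.73 [0.708–0.753] of that in the other members. Without the upper limit on genes, 12 genes were lower with Wnt7b.

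**Figure D4:**
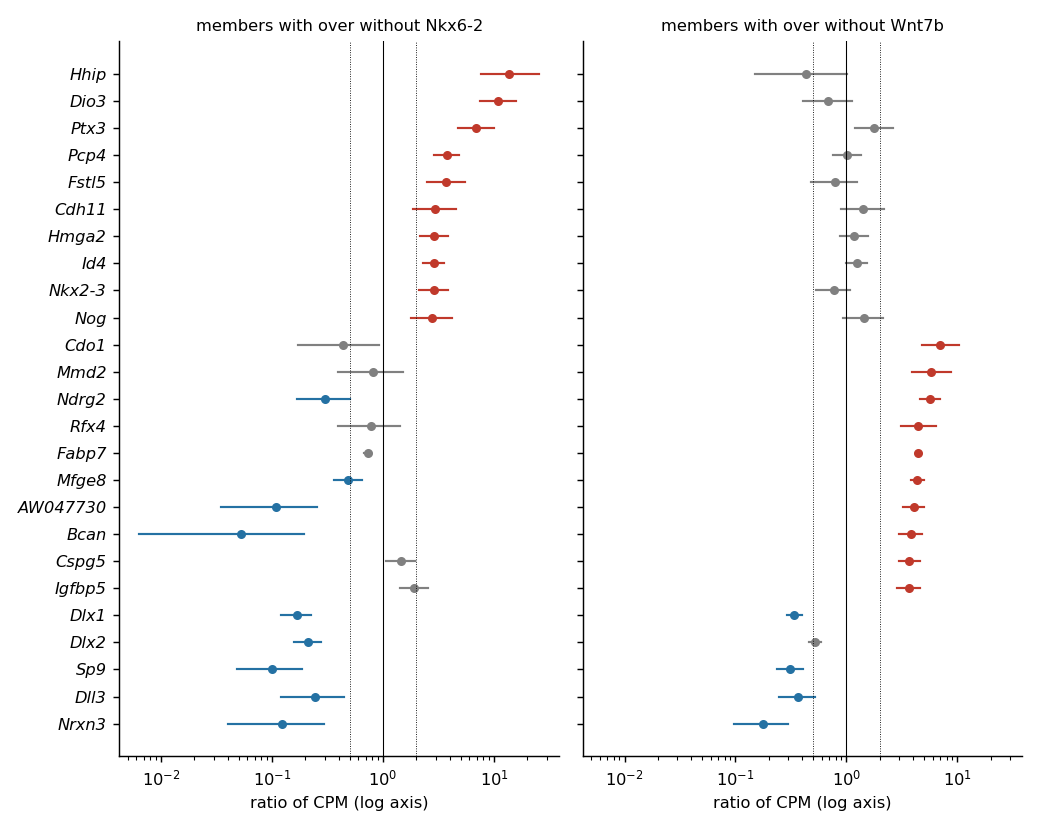
Points give the ratio of CPM (x axis, log) of each gene in members with over members without Nkx6-2 (left) and Wnt7b (right), with exact 95% counting intervals, and dotted lines mark the 2-fold limits. Red genes passed the fold upward, blue genes downward, and grey genes did neither. Hhip, Dio3 and Ptx3 lie right of the upper limit on the left panel and left of it on the right panel, Fabp7 does the reverse, and Bcan lies left of the line for Nkx6-2 and right of it for Wnt7b.

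A direct comparison of the 50 members with Nkx6-2 alone and the 110 with Wnt7b alone, chosen after the splits had been seen, gave 49 of 4145 genes (1.18%) higher and 98 (2.36%) lower with Nkx6-2. Early glial genes had 5 of 7 lower, Olig1, Bcan and the nuclear factor genes Nfia, Nfib and Nfix, and none higher, and the summed list stood at 0.396 [0.36–0.435]. Bcan stood at 3.86 against 140.3 CPM (0.0275 [0.0033–0.101]) and Olig1 at 5.79 against 86.6 CPM (0.0668 [0.0135–0.201]). Of 11 neurogenic genes 8 were lower. Hhip stood at 67.5 against 5.65 CPM (11.9 [4.97–34.7]). Hes1 and Hes5, both Notch effectors, went opposite ways, at 141 against 54.6 CPM and 718 against 1513 CPM.

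Both splits moved with neurogenic genes, so they were repeated in the 90 members that held no UMI of Dlx1, Dlx2 or Sp9, a choice also made after seeing the data. Such cells made up 38.6% [26–52.4] of members with Nkx6-2 and 14.7% [11.6–18.2] of those without, and 25.6% [18–34.5] of members with Wnt7b and 14.9% [11.6–18.7] of those without. Without 3 non-neural cells, 22 members with Nkx6-2 were set against 65, and 172 of 4303 genes (4%) were higher and 142 (3.3%) lower. Hhip stood at 105 against 3.32 CPM, with 23 and 2 UMIs (31.6 [7.8–276]), and Dio3 at 164 against 9.95 CPM (16.5 [6.88–47.8]). Ptch1 was now past the fold, at 137 against 58 CPM (2.35 [1.4–3.95]), and the summed hedgehog list stood at 1.87 [1.45–2.41]. Of 5 neurogenic genes that could still be tested 2 were lower with Nkx6-2, among them Insm1. Radial glia genes had none of 23 higher and Fabp7, Prom1 and Vcam1 lower, and a summed ratio of 0.758 [0.728–0.79]. Bcan had 0 against 33 UMIs, at least 4.01-fold lower with Nkx6-2 by a floor of 3 UMIs in the set. Wnt7b ranked 2 among the 10 lowest genes with Nkx6-2.

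In the same cells 30 members with Wnt7b were set against 57, and 127 of 4188 genes (3.03%) were higher and 111 (2.65%) lower. Of 19 tested G2 and mitosis genes 10 were lower with Wnt7b and none higher, and the summed list stood at 0.508 [0.467–0.552]. Mki67, a marker of cycling cells, stood at 157 against 388 CPM (0.404 [0.284–0.562]), and Ccnb1, the mitotic cyclin, at 80.2 against 289.9 CPM (0.277 [0.169–0.434]). S phase genes had none of 18 past the fold, with a summed ratio of 0.913 [0.848–0.984]. Fabp7 stood at 5543 against 1364 CPM (4.06 [3.72–4.44]) and Bcan at 83.8 against 18.2 CPM (4.6 [2.1–10.8]). Aldh1l1, a folate enzyme used as an astrocyte marker, had 35 UMIs with Wnt7b and 1 without (70 [11.8–2842]). Rhcg, Rfx4, Clu, Cdo1, Id3 and Mfge8 were also among the 10 highest. Nkx6-2 was the lowest gene with Wnt7b, which rests on the same cells as the low rank of Wnt7b with Nkx6-2. These sets were small, and the share of genes past the fold was larger than in the full splits.

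**Figure D5:**
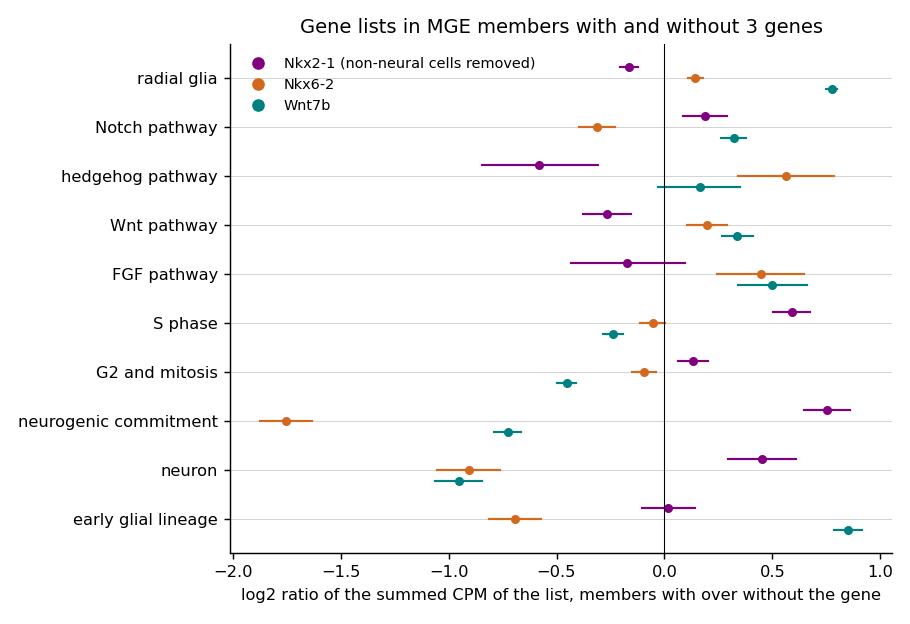
Points give the log2 ratio of the summed CPM of each gene list (x axis) in members with over members without Nkx2-1 (non-neural cells removed), Nkx6-2 and Wnt7b, with exact 95% counting intervals. The neurogenic list lies right of 0 for Nkx2-1 and left of it for Nkx6-2 and Wnt7b, and the early glial list lies left of 0 for Nkx6-2 and right of it for Wnt7b.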

How the data were processed

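The 4 libraries were made with the 10x Genomics droplet method from E12.5 wild-type mouse brain, 1 library per region. The authors deposited raw UMI counts per gene and barcode, made with Cell Ranger against mm10. The submitters' processing notes name version 3.0.0 and the header of the deposited count matrices 3.0.2, and the annotation release and the use of strand are not given in the sources used here. Of 43346 features 42462 matched GENCODE M21 (GRCm38) by gene ID, and this release gave the positions.

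Kept barcodes had more than 1500 and fewer than 4500 genes, under 5% mitochondrial and under 1% Hbb UMIs. UMIs were summed over the gated cells of a library and scaled to CPM. Ratios carry exact conditional binomial intervals and shares exact Clopper-Pearson intervals, both at 95% and for counting error only. Cells of 1 library are not replicates, so no p-value was computed, and a fixed fold rule was used: a ratio of at least 2 or at most 0.5, out of genes at 50 CPM or more in either set, leaving out Nes, Dcx and the gene of a split. A gene that reached 50 CPM in a single set could only be higher in that set. A level of 0 was set to a floor of 3 UMIs per library or set of cells. For shares, each cell was thinned at random to 3000 UMIs and shallower cells were left out. Levels were not scaled by gene length, so genes were compared with themselves only.

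Genes were named from 21 lists (285 genes). Added to these were the 5 highest and 5 lowest unlisted genes of each regional comparison and the 10 highest and 10 lowest of each split. Bcan, Nr2f1, Nr2f2 and other genes named beyond their list's examples, among them Shisa2, Gli1 and Pdgfra, were chosen after their values were seen. Some genes of the lists and picks are not reported here by name, and counts of the lists include them. The members and the lists were chosen with earlier results of these data known. Predicted doublets, scored against simulated sums of cell pairs and called at a rate that grew with the number of barcodes, were kept, and their removal was an alternative. The scripts were tested on simulated counts. Python 3.11.15, numpy 2.4.6, scipy 1.17.1, pandas 2.3.3, scikit-learn 1.9.0 and matplotlib 3.10.9 were used. Alternatives changed the Nes and Dcx limits, the gene limit, doublets, non-neural cells, the CPM limit, the weighting of cells, the split and the thinning.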

Additional observations from a re-analysis of the deposited data

How the results depend on the processing

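No paired analysis was possible because each region had 1 library. With a Nes limit of 1.0 the gate held 19.9% of kept cells in MGE, 23.4% in LGE, 10.2% in CGE and 43.6% in CTX, and with 2.0 it held 4.62%, 3.43%, 2.16% and 7.46%, so that MGE then exceeded LGE. A Dcx limit of 0.5 gave 9.01%, 10.1%, 4.16% and 23.3%, thinning before the gate 8.14%, 8.31%, 4.03% and 16.2%, and no upper limit on genes 12.6% in MGE, 13.6% in LGE and 6.36% in CGE. The other 9 of 28 gate shares moved within their counting interval. With a limit of 20 CPM in place of 50, 101 genes were higher and 129 lower in MGE than in LGE, 107 and 176 for CGE, and 321 and 256 for CTX, and the other 42 of 48 regional counts stayed within 1.5 times. Of the named ratios between regions, only those past the fold were followed, and none of these changed sides of 1. Ratios inside the fold, or of genes below 50 CPM, were not followed.

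Counts of the splits moved more. At 20 CPM they were 223 higher and 282 lower with Nkx2-1, 169 and 206 with Nkx6-2, and 122 and 59 with Wnt7b. With at least 2 UMIs as the split they were 129 and 132 for Nkx6-2 and 130 and 69 for Wnt7b, and 39 were lower for Nkx2-1. Splitting on thinned counts gave 17 and 8 for Nkx2-1 and 121 and 129 for Nkx6-2. A Nes limit of 2.0 gave 148 higher for Nkx2-1, 86 higher for Nkx6-2 and 11 lower for Wnt7b, and a limit of 1.0 gave 161 lower for Nkx2-1 and 86 higher and 43 lower for Wnt7b. No upper limit on genes gave 12 and 34 for Nkx6-2 and 12 lower for Wnt7b, and removing non-neural cells gave 36 lower for Nkx2-1. Members without Dlx1, Dlx2 and Sp9, added after seeing the data, gave 172 and 142 for Nkx6-2 and 127 and 111 for Wnt7b. The cause of these changes was not tested. The ratio of Cdkn1c by Nkx2-1, 0.479 with all members, was 1.50 at a Nes limit of 2.0, 3.47 without non-neural cells and 1.35 on thinned counts, and that of Col4a1 became 3.84 without non-neural cells. In the alternatives followed for ratios, the other named ratios kept their side of 1 wherever the main value was past the fold. Over these, Hhip by Nkx6-2 ranged from 9.43 to 19.0 and Fabp7 by Wnt7b from 3.13 to 5.92. Members without Dlx1, Dlx2 and Sp9 were followed by counts only, and the Hhip ratio given above for them lay beyond that range. At their own depth, 90.6% of members held Nkx2-1, 86.3% Hes5, 58.7% Asb4, 22.5% Wnt7b and 11.0% Nkx6-2.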
